A study of Mus musculus with 8 samples.

Results

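The replication-dependent histone genes of the mouse pancreas bud were chosen by name from the deposited expression table, as every row whose identifier starts with Hist1h, Hist2h, Hist3h or Hist4h. They were 67 of the 24341 genes in the table: 6 for the linker histone H1, 18 for H2A, 18 for H2B, 12 for H3 and 13 for H4. Their loci lie in 4 clusters, with 53 members on chromosome 13, 10 on chromosome 3, 3 on chromosome 11 and 1 on chromosome 6. The libraries were made from single CD1 pancreas buds at E11.0, of about 40 somites, from which the mesenchyme had been removed by hand. There were 5 wild-type (WT) buds and 3 buds of the genotype Pdx1Creearly;Lats1f/f;Lats2f/f (Lats1/2-null), in which an early Pdx1-driven Cre deletes the floxed alleles of the Hippo pathway kinases Lats1 and Lats2 in pancreatic progenitors and not in the other cells of the bud. The labels name no further allele or treatment in either group, and the Cre and floxed alleles are not listed for WT. The study states in general that its mutants were set against WT or heterozygous littermates, so what the WT buds carry beyond the label is not known here. Levels are FPKM, fragment numbers scaled by transcript length and by the fragments of the library, so they can be compared between genes of different length.

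Replication-dependent histone genes supply the protein that packages newly copied DNA. They are transcribed together in S phase under the coactivator NPAT, almost all lack introns, and their mRNAs end in a short stem-loop in place of a poly(A) tail. The stem-loop is bound by SLBP, and the 3′ end is cut with the help of the U7 small nuclear RNA. Core histones H2A, H2B, H3 and H4 form the nucleosome, and H1 binds the linker DNA. Libraries made by selecting poly(A) RNA miss most of these transcripts. The libraries here were made from total RNA after removal of ribosomal RNA.

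The sequence that sets these mRNAs apart could be read in the GENCODE M21 transcripts, on the GRCm38 build that the deposited table also uses. Of 66 members with an annotated coding sequence, 51 had at least 30 bases annotated after the stop codon. Within 150 bases after the stop, 45 of those held a hairpin of 16 bases, with a stem of 6 base pairs and a loop of 4 bases. The search took only hairpins that open with GG and close with CC, so those letters were set in advance and hairpins with other ends were missed. The hairpin began 21 to 58 bases after the stop codon (median 31). The other 15 could not be searched to that depth because their annotated transcripts end at or near the stop. The lines below show the 8 forms found, the most common of them in a pair of members (Hist1h1e and Hist1h2be), with the hairpin in capitals and flanking bases in lower case.
Hist1h1e (chr13:23621782-23621797, minus strand): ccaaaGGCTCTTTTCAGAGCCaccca
Hist2h2ac (chr3:96220418-96220433, minus strand): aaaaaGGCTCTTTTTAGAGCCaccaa
Hist1h2be (chr13:23585531-23585546, minus strand): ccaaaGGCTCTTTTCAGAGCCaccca
Hist1h3c (chr13:23745047-23745062, minus strand): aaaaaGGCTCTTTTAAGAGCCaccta
Hist1h3g (chr13:23535889-23535904, plus strand): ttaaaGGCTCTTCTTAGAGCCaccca
Hist1h4d (chr13:23581950-23581965, plus strand): ccaaaGGCCCTTTTCAGGGCCactac
Hist2h4 (chr3:96262939-96262954, minus strand): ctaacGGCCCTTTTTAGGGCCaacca
Hist1h4a (chr13:23760800-23760815, minus strand): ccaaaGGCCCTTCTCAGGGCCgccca
Hist1h4b (chr13:23757366-23757381, plus strand): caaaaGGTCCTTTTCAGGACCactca
The 5′ arm of the stem separated H4 from the other classes. All 33 hairpins of H1, H2A, H2B and H3 began with GGCTC, whereas 10 of 12 in H4 began with GGCCC and 2 with GGTCC. The single most common form, shown for Hist1h1e, was found in 25 members of H1, H2A, H2B and H3 and in none of H4. Hist2h2be and Hist1h2bc, H2B genes known to make polyadenylated mRNA, had no match in the transcripts used, and nor did Hist1h1a, Hist1h2bp, Hist1h2bq and Hist2h3b.

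Promoters, here 250 bases before to 50 after the RefSeq start on GRCm38.p6, were on hand for 60 of the 67 members and showed a second difference between H4 and the rest. CCAAT or its reverse complement ATTGG was present in all 48 promoters of H1, H2A, H2B and H3 but in 3 of 12 for H4, against 37.9% of 27025 promoters of all genes. TATAAA, read on the strand of the gene only, was present in 50% of member promoters and 8.88% of all. The octamer ATTTGCAT or its reverse complement ATGCAAAT was present in 7 of 17 H2A promoters and 6 of 15 H2B promoters, in none of H1, H3 or H4, and in 1.75% of all promoters. None of these motifs overlaps another in its letters, and H2A and H2B genes that face away from each other share part of the window. The promoters of the H1, H2B and H4 members with the highest mean FPKM are shown with these motifs in capitals. Hist1h4d is one of the 3 H4 promoters with CCAAT or ATTGG, so it is not typical of its class in this.
Hist1h1e (chr13:23622509-23622808, minus strand): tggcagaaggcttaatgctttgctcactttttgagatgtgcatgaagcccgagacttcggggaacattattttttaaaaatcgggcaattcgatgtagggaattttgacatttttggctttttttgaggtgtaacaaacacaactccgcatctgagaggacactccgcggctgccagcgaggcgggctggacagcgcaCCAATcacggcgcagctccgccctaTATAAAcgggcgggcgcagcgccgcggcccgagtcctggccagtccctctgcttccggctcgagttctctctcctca
Hist2h2bb (chr3:96269450-96269749, plus strand): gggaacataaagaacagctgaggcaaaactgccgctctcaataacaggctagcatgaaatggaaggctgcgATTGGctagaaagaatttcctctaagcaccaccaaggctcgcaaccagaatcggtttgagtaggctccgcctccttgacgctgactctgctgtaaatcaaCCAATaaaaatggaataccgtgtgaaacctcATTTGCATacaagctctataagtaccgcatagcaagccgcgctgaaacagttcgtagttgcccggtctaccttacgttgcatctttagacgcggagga
Hist1h4d (chr13:23581318-23581617, plus strand): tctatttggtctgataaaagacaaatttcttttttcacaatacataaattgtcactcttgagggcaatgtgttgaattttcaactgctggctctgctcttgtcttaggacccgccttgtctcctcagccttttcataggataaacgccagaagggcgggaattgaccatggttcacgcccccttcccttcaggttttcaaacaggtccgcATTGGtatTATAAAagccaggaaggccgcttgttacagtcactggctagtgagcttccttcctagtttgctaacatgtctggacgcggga

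The histone mRNAs were abundant. The FPKM of all members summed to 13690, 13741, 14650, 17887 and 9849 in WT 1 to 5, and to 11524, 14536 and 10539 in Lats1/2-null 1 to 3. These sums made up 1.48% to 2.99% of all FPKM in a library. The most abundant member was Hist1h1e, an H1 linker histone, at a mean of 1729 ± 358 FPKM in WT (SD, n = 5) and 1763 ± 188 in Lats1/2-null (SD, n = 3). The 6 H1 members took the largest share of summed histone FPKM, from 29.9% to 38.1% over the 8 libraries, and H3 the smallest, from 5.85% to 7.21%. H4 took 11.8% to 14.7% in WT and 10.4% to 12.3% in Lats1/2-null. FPKM of such short genes depend on how the quantification corrects for fragment length, since 62 of the 67 loci were 312 to 903 bases long, with a median of 487 over all members. Core histone members also share more coding sequence with each other than H1 members do (below). How shared reads were assigned is not known, so the shares of the classes are uncertain.

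**Figure D1:**
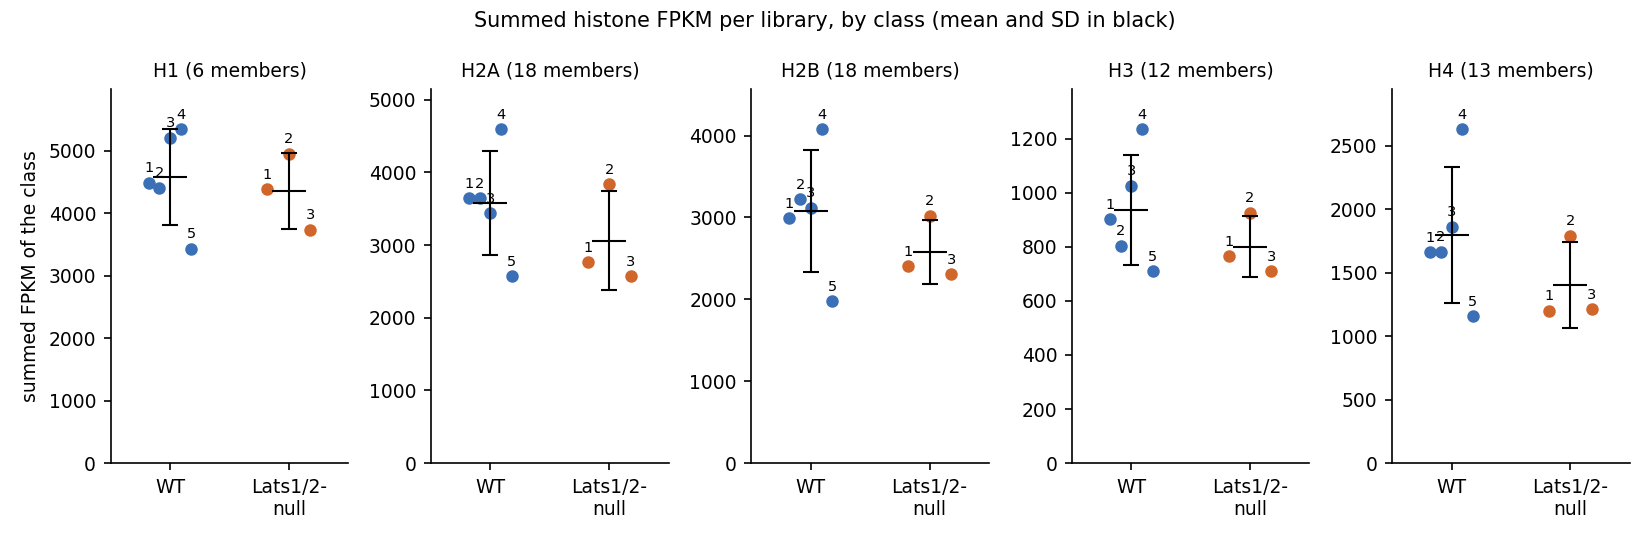
FPKM summed over the members of each histone class in every library (dots, numbered by replicate), with the mean and SD of the 5 WT and 3 Lats1/2-null libraries in black. In each class except H1, WT 4 stands above and WT 5 at or near the bottom, and the 3 Lats1/2-null libraries lie between or beside them. In H1, WT 3 and WT 4 lie close together at the top.

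No histone class separated the genotypes. H1 summed to 4489, 4405, 5205, 5346 and 3429 FPKM in WT 1 to 5 and to 4387, 4953 and 3736 in Lats1/2-null 1 to 3, a log2 ratio of means of -0.07. H2A summed to 3647, 3643, 3436, 4596 and 2570 in WT and to 2768, 3841 and 2575 in Lats1/2-null, a log2 ratio of -0.23. The 3 Lats1/2-null sums of both classes lay inside the WT range. H2B summed to 2988, 3224, 3120, 4079 and 1981 in WT and to 2403, 3023 and 2304 in Lats1/2-null, a log2 ratio of -0.26. H3 summed to 903, 804, 1026, 1235 and 711 in WT and to 766, 926 and 709 in Lats1/2-null, a log2 ratio of -0.23, with Lats1/2-null 3 just under the lowest WT bud. H4 summed to 1663, 1666, 1864, 2632 and 1158 in WT and to 1201, 1792 and 1215 in Lats1/2-null, a log2 ratio of -0.36. The highest WT bud was 1.56-fold above the lowest for H1, 1.79-fold for H2A, 2.06-fold for H2B, 1.74-fold for H3 and 2.27-fold for H4. Single buds spread more widely than means of 5 and 3 buds, so these ranges do not test the ratios of means.

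Gene by gene, 64 members had a mean of at least 0.5 FPKM and were tested with limma on log2(FPKM + 1) among 13777 genes. None had an adjusted p under 0.05 (Benjamini-Hochberg), where 2 genes, or 0.0145% of all tested, did. At an unadjusted p under 0.05, 4 members were lower in Lats1/2-null and 0 higher, against 4.99% of all genes lower and 6.29% higher. The Lats1/2-null values of 0 members lay wholly outside the WT range, against 3.06% of all genes wholly below and 4.46% wholly above. The mean of log2(FPKM + 1) was lower in Lats1/2-null for 55 of 64 members, where 53.1% of all genes were lower. At a mean of at least 20 FPKM, 47 of 53 members and 2507 of 4262 genes were lower. Median log2 fold changes at that level were -0.23 and -0.02. The median log2 fold change was -0.20 over the tested members and -0.01 over all tested genes, and by class it was -0.16 for H1, -0.29 for H2A, -0.13 for H2B, -0.24 for H3 and -0.28 for H4. Members share reads and rise and fall together between buds, so their counts are not independent. The median moved to -0.10 without WT 4, -0.11 without Lats1/2-null 3 and -0.14 without Lats1/2-null 1, and to -0.32 without WT 5 and -0.36 without Lats1/2-null 2.

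**Figure D2:**
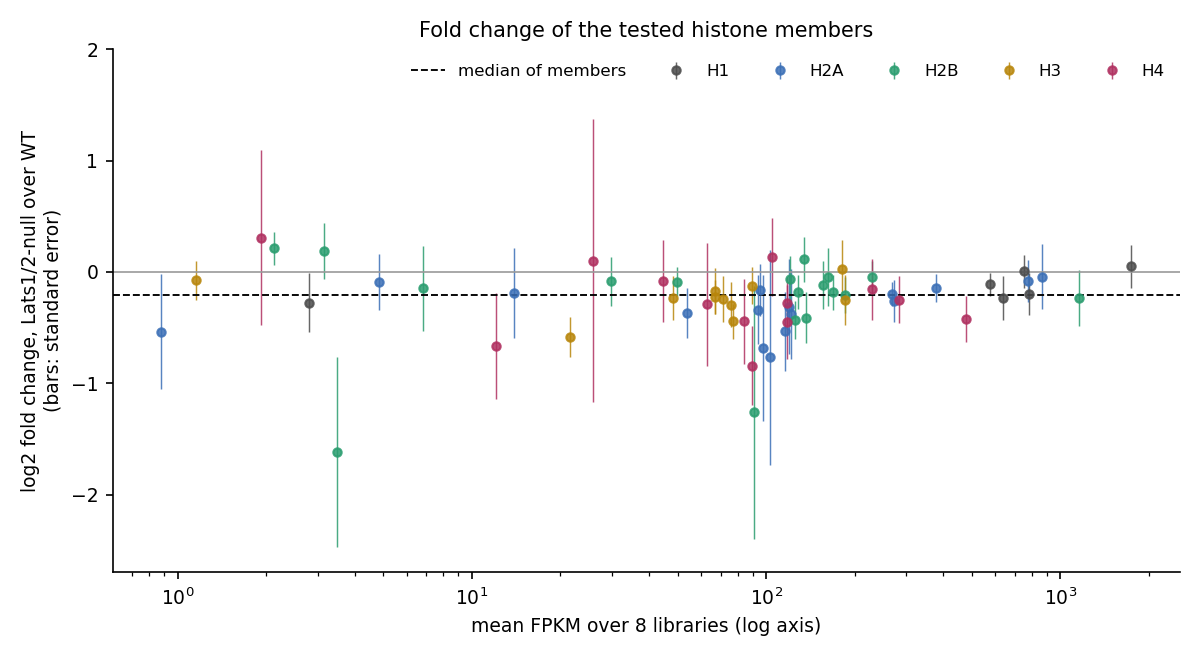
log2 fold change (Lats1/2-null over WT, on log2(FPKM + 1), with its standard error) of the 64 tested members against mean FPKM on a log axis, coloured by class. Most points lie between 0 and -0.5 with error bars that reach 0 or near it; the dashed line is the median of -0.20.

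The 4 members at an unadjusted p under 0.05 came from H2B, H3 and H4. Hist1h3h, an H3 gene, was at 21.4, 25.6, 23.9, 31.5 and 20.8 FPKM in WT 1 to 5 and at 21.3, 15.8 and 12.0 in Lats1/2-null 1 to 3. Lats1/2-null 2 and 3 lay below every WT bud and Lats1/2-null 1 within the WT range, a log2 fold change of -0.58 ± 0.18 (SE; limma p = 0.0103, adjusted p = 0.3004; exact two-sided permutation p = 0.0357, where 0.0179 is the smallest that 5 against 3 buds allow). Hist1h3c was at 86.1, 82.2, 81.6, 113 and 66.5 FPKM in WT and at 60.1, 73.0 and 54.5 in Lats1/2-null. Here Lats1/2-null 1 and 3 were below the lowest WT bud, WT 5, and the log2 fold change was -0.44 ± 0.16 (SE; limma adjusted p = 0.344; exact permutation p = 0.0714). Hist1h2bn, an H2B gene, was at 106.7, 127, 158, 175 and 127 FPKM in WT and at 106.5, 119 and 81.5 in Lats1/2-null. Lats1/2-null 1 and 3 were at or below the lowest WT bud, WT 1, and the log2 fold change was -0.43 ± 0.17 (SE; limma adjusted p = 0.398; exact permutation p = 0.0893), and -0.28 without Lats1/2-null 3. Hist1h4f, an H4 gene, was at 127, 67.4, 138, 88.6 and 103.8 FPKM in WT and at 40.2, 113 and 39.0 in Lats1/2-null. Lats1/2-null 2 was above 3 of the WT buds while the other two were below all of them, and the log2 fold change was -0.84 ± 0.36 (SE; limma adjusted p = 0.422; exact permutation p = 0.107), and -1.34 without Lats1/2-null 2. None of the 4 separated the groups.

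The members with the highest FPKM overlapped between the genotypes. Leading here means the highest mean FPKM of a class, a rank that is uncertain where members share reads. Hist2h2bb, the leading H2B gene, was at 1157, 1317, 1294, 1709 and 714 FPKM in WT 1 to 5 and at 921, 1242 and 911 in Lats1/2-null 1 to 3, so WT held both the highest and the lowest value. Hist2h2ac, the leading H2A gene, ranged from 447 to 1125 FPKM in WT (median 946) and from 684 to 1074 in Lats1/2-null. Its log2 fold change was -0.04 ± 0.29 (SE). Hist1h4d, the leading H4 gene, was at 496, 545, 567, 697 and 347 FPKM in WT and at 409, 443 and 315 in Lats1/2-null, a log2 fold change of -0.43 ± 0.21 (SE; limma adjusted p = 0.505). All but WT 5 of the WT buds were above the 3 Lats1/2-null buds, and the log2 fold change was -0.28 without Lats1/2-null 3. Hist1h3g, the leading H3 gene, ranged from 125 to 260 FPKM in WT (median 208) and from 130 to 197 in Lats1/2-null. Hist4h4 on chromosome 6, the only member of its cluster, was at 459 FPKM in WT 4 and at 247 to 283 in the other 4 WT buds, beside 200 to 298 in Lats1/2-null. Among the leading H1 genes, the log2 fold change was 0.05 ± 0.19 (SE) for Hist1h1e, 0.01 ± 0.15 for Hist1h1d and -0.20 ± 0.19 for Hist1h1b.

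**Figure D3:**
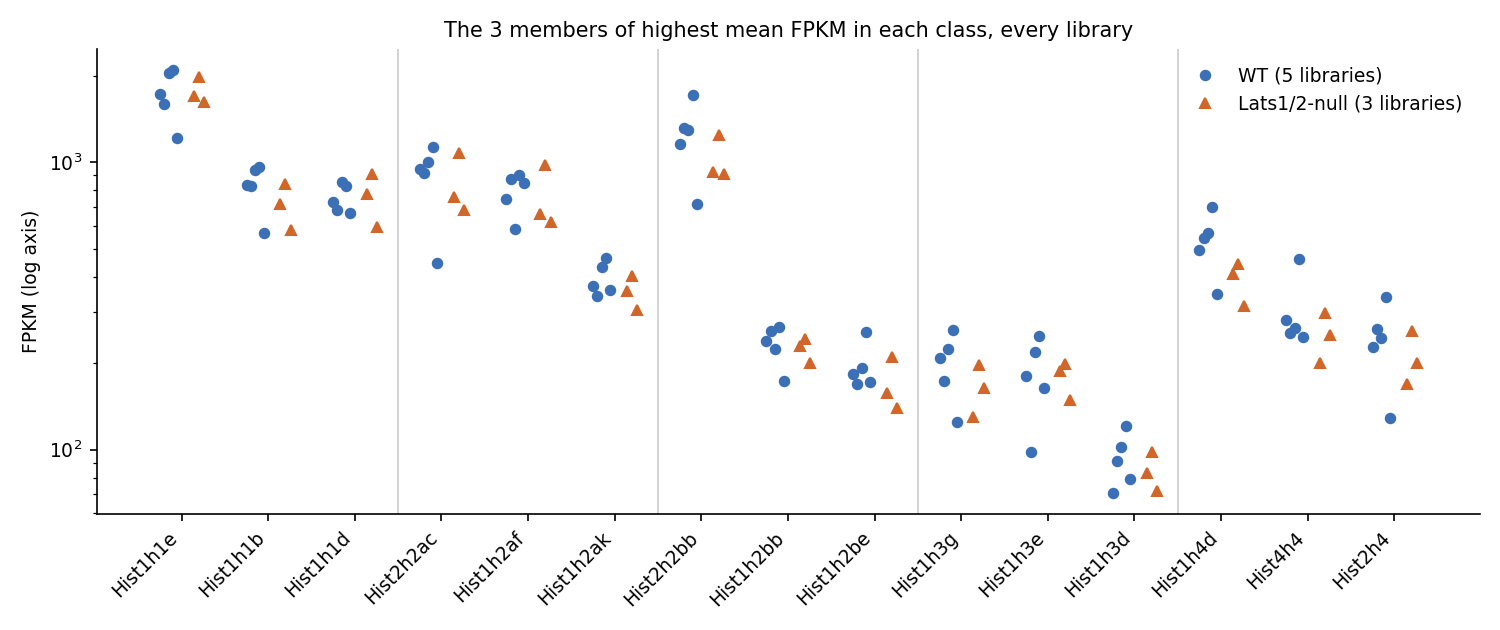
FPKM on a log axis of the 3 members with the highest mean in each class, with 5 WT libraries as circles and 3 Lats1/2-null libraries as triangles, each in replicate order. The triangles fall within or beside the circles for each gene, and the WT circles of Hist2h2ac, Hist2h2bb and Hist2h4 are spread over 2.52-, 2.39- and 2.65-fold.

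Buds of one genotype also differed from each other. After each gene was centred on its mean over the 8 libraries, the median deviation of the 64 members (log2 scale) was 0.01, 0.11, 0.20, 0.47 and -0.42 in WT 1 to 5 and -0.24, 0.14 and -0.33 in Lats1/2-null 1 to 3. WT 4 gave the highest of the 8 values for 41 of 64 members, or 64.1%, where it was highest for 12.4% of all tested genes. WT 5 gave the lowest value for 27 members, or 42.2%, against 19.7% of all genes, and Lats1/2-null 3 for 20, or 31.2%, against 20.6%. WT 4 and Lats1/2-null 2 were lowest for 0 members. In all 5 classes the median was highest in WT 4. The median SD over the 5 WT libraries was 0.39 on the log2 scale for members of at least 20 FPKM and 0.12 for all genes at that level.

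**Figure D4:**
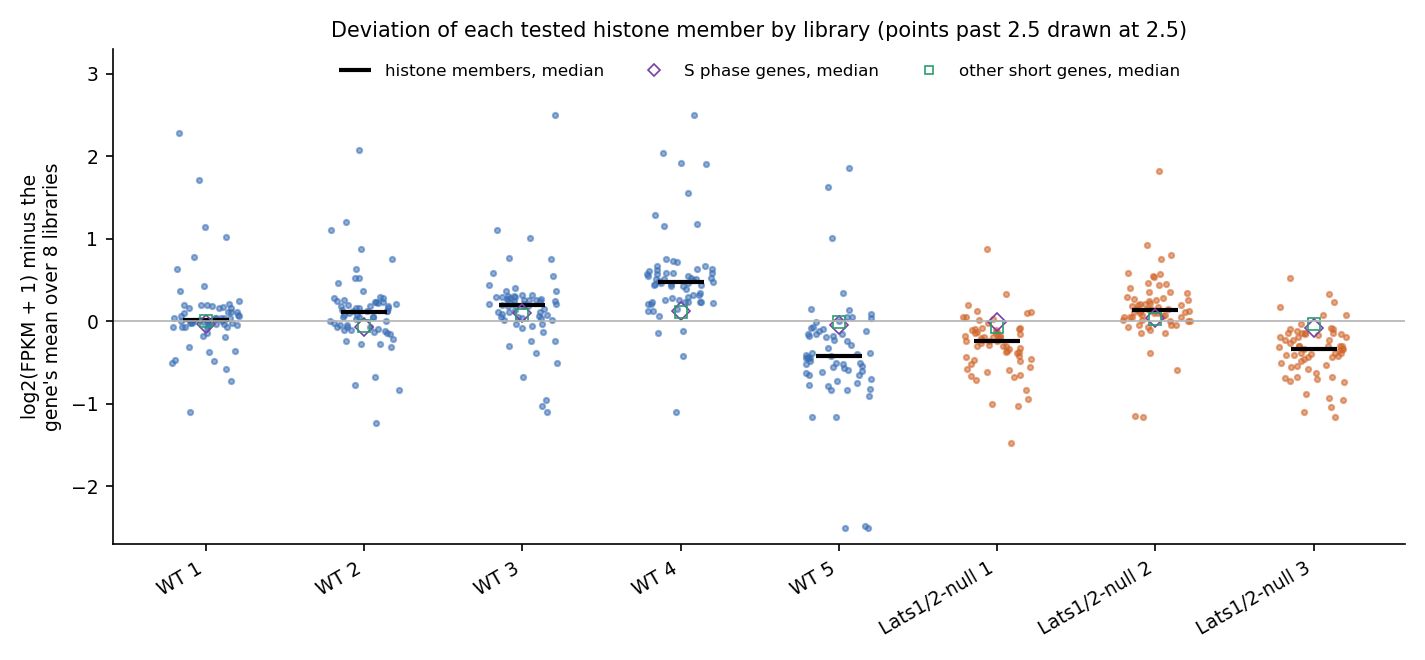
Deviation of log2(FPKM + 1) from the gene's mean over the 8 libraries, a point for each of the 64 tested members in each library, with medians of the members (bars), of 25 S phase genes (diamonds) and of 70 other genes with loci of 300 to 1000 bases (squares). The bar is at 0.47 in WT 4 and at -0.42 in WT 5, while diamonds and squares stay between -0.08 and 0.13.

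The median of other S phase genes and of other short genes moved less between buds than that of the histones. The 25 S phase genes, for DNA replication enzymes and their regulators, had median deviations from -0.08 to 0.13 with their highest in WT 4, and a median log2 fold change of -0.02. Rfc4, a subunit of the clamp loader, had the smallest p of them, at 49.9, 50.3, 59.7, 58.6 and 51.2 FPKM in WT and 44.3, 52.5 and 42.6 in Lats1/2-null (log2 fold change -0.21 ± 0.09, SE; limma adjusted p = 0.435). Of 16 genes of G2 and M phase, 15 were lower in Lats1/2-null, with a median of -0.05 and 0 called. The 70 tested genes other than histones with a locus of 300 to 1000 bases had median deviations from -0.07 to 0.11. Their median log2 fold change was -0.07, and their median in WT 5 was -0.01. Single genes of this group varied as much as single histone members: their median WT SD was 0.42 on the log2 scale, against 0.39. WT 5 differed from the other libraries in the FPKM that a single fragment was worth, which stands in here for depth. Read from the most common ratio of values under 0.3 FPKM, it was 1.28 times that in WT 1, against 0.97 to 1.04 times in the rest. Small nucleolar RNAs took 147993 FPKM in WT 5, against 50159 to 135659 in the others. The value of 135659 was in Lats1/2-null 2, the Lats1/2-null bud with the highest histone sum. The part of depth, of these RNAs and of the share of cells in S phase in the pattern was not tested.

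Genes that make and handle these mRNAs differed little between the groups. Slbp, the stem-loop binding protein, was at 69.6, 67.0, 72.3, 74.0 and 66.4 FPKM in WT 1 to 5 and at 72.2, 74.4 and 64.0 in Lats1/2-null 1 to 3, a log2 fold change of 0.01 ± 0.07 (SE). Over the 8 libraries its range was thus narrow beside the 1.82-fold range of summed histone FPKM in WT alone. Of the 12 tested genes for histone mRNA processing, 8 had a higher and 4 a lower mean, from -0.10 to 0.23, with 0 called. Of 14 histone chaperones, 12 were lower, with a median log2 fold change of -0.05 and 0 called. Nasp, a chaperone of H1 and H3, was at 445 to 561 FPKM in WT (median 502) and at 394 to 492 in Lats1/2-null. The 11 genes listed as histone variants outside the replication-dependent set all had a lower mean of log2(FPKM + 1) in Lats1/2-null. Their log2 fold changes ran from -0.22 to -0.004, with a median of -0.12 and 0 called. H3f3a, for the variant H3.3, was at 448 to 519 FPKM in WT and at 414 to 488 in Lats1/2-null, and H2afz, for H2A.Z, at 243 to 344 and at 251 to 294. Their median deviations by bud ran from -0.19 to 0.18.

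Members with polyadenylated forms were few and did not vary alike. The 4 genes Hist1h1c, Hist1h2bc, Hist1h2be and Hist2h2be had median deviations from -0.17 to 0.18, against -0.44 to 0.49 for the other 60 tested. Hist1h1c, an H1 gene, was at 576, 606, 620, 628 and 529 FPKM in WT 1 to 5 and at 621, 549 and 479 in Lats1/2-null 1 to 3, so its WT buds lay within 1.19-fold of each other. Hist1h2bc, an H2B gene, was at 139, 134, 151, 153 and 79.7 FPKM in WT and at 121, 157 and 139.6 in Lats1/2-null, with a WT SD of 0.39 on the log2 scale, like the median member. Hist1h2be was at 169 to 192 FPKM in 4 WT buds and at 257 in WT 4, and at 157, 210 and 140 in Lats1/2-null. Hist2h2be was at 1.54 to 2.24 FPKM in WT and at 2.91, 2.45 and 1.92 in Lats1/2-null, while the H2A gene beside it in cluster 2, Hist2h2ac, was at a mean of 887 FPKM in WT. The listed locus of Hist2h2be is 2618 bases and that of Hist2h2ac 468, and FPKM are scaled by length. The part of length in this difference was not tested. Members best known from the male germ line were near the floor. Hist1h1t was at 2.38 to 3.38 FPKM in WT and at 1.72, 4.51 and 1.30 in Lats1/2-null. Hist1h2aa was at most 0.946 FPKM in any library and was not tested. Hist1h2ba was at 3.95, 1.43, 21.5, 0.676 and 0 FPKM in WT and at 0.360, 0 and 0 in Lats1/2-null, so the group difference rested on WT 3.

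Members of a class share long stretches of coding sequence, compared here in windows of 75 bases, the length of a read; untranslated ends and the second read of a pair were not compared. In H3 and H2A, a median of 78.1% and 78.2% of the 75-base windows of a coding sequence also occurred in another member, in H2B 66.2%, in H4 65.1% and in H1 8.81%. Every such window occurred in some other member for 11 members, and at least 50% of windows did for 46 members. The other member need not be the same for each window: Hist1h2ad shared 100% of windows, but 90.5% with its closest single member. How reads that match several copies were assigned is not given in the sources used here, so single values of these genes are uncertain. The 5 members of at least 20 FPKM whose WT SD exceeded 1 on the log2 scale (Hist1h4n, Hist1h2bl, Hist1h2ap, Hist1h2ah and Hist1h4a, chosen here after their values were seen) shared at least 70.2% of windows. Hist1h2bl, an H2B gene, was at 233, 202, 23.8, 181 and 5.18 FPKM in WT 1 to 5 and at 26.0, 20.7 and 35.7 in Lats1/2-null 1 to 3. Its H2B class sum differed only 2.06-fold among the same WT buds. The medians of the WT SD were closer, at 0.40 for the 37 members at that level that shared at least 50% of windows and 0.33 for the 7 that shared under 10%. Hist2h4, which shared none, was still highest in WT 4 and lowest in WT 5, at 227, 262, 244, 341 and 129 FPKM in WT and at 170, 258 and 200 in Lats1/2-null.

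**Figure D5:**
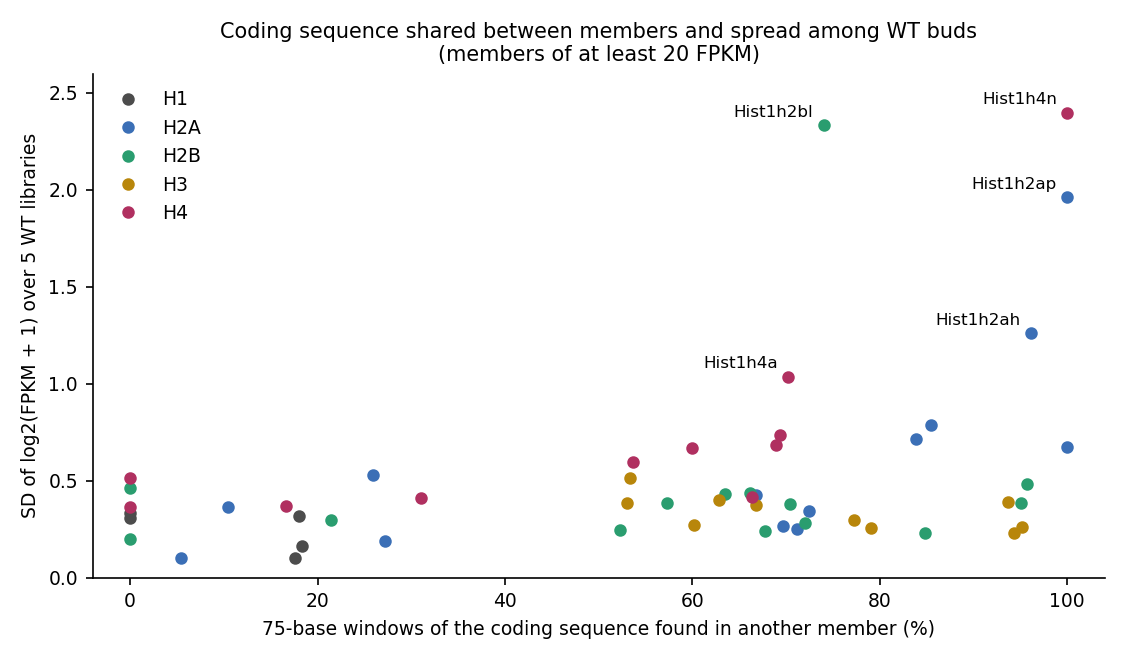
SD of log2(FPKM + 1) over the 5 WT libraries against the percentage of 75-base coding windows that another member also holds, for the 53 members of at least 20 FPKM, coloured by class. The 5 named genes above an SD of 1 lie at 70.2% or more; the group under 10% holds only 7 genes, with a median of 0.33 against 0.40 for the 37 at 50% or more.

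For 8 members the table gave each of 4 loci under a pair of names: Hist1h2ao with Hist1h2ap, Hist1h4m with Hist1h4n, Hist2h2aa1 with Hist2h2aa2 and Hist2h3c1 with Hist2h3c2. The starts of Hist1h4m and Hist1h4n lie 20451 bases apart in RefSeq although a single locus was listed. The split between the names of a pair differed from bud to bud: Hist1h4m was at 6.79 FPKM and Hist1h4n at 0.002 in WT 5, and at 2.94 and 6.43 in Lats1/2-null 1. Hist1h2ap with Hist1h2ao summed to 216, 151, 31.3, 272 and 14.7 FPKM in WT 1 to 5 and to 44.98, 66.3 and 33.5 in Lats1/2-null 1 to 3, so adding the pair did not remove the spread among WT buds. Hist2h3c1 stayed under 0.004 FPKM in every library, and Hist2h2aa2 reached 2.04 FPKM in WT 2 alone; neither was tested.

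Among the 60 members with a promoter, 9 pairs of an H2A and an H2B gene started on opposite strands within 164 to 281 bases. The deposited FPKM of the partners were not equal, but reads shared with other members leave these differences uncertain. Pairs with a member that had no promoter on hand were missed by this search. Hist1h2bc lies beside Hist1h2ac in this way, and Hist2h2be beside Hist2h2ac, with means over 8 libraries of 2.13 and 869 FPKM on loci of 2618 and 468 bases. Of the 9 pairs, Hist1h2ag and Hist1h2bj differed least, with means over 8 libraries of 116 and 137 FPKM. Hist1h2ak and Hist1h2bn were at 379 and 125 FPKM, and shared 27.2% and 72.0% of their coding windows with other members. Hist1h2bf was at 156 FPKM and its H2A partner Hist1h2ad at 13.9, an 11.2-fold difference, but each 75-base coding window of Hist1h2ad also occurs in another member.

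Levels of cell type markers differed between the buds as well. In bulk buds, a changed share of cells and a changed level per cell cannot be told apart. Sox9, on the epithelial list, is also among the known TEAD target genes that the study lists. All 12 epithelial markers had a higher mean in Lats1/2-null, and their FPKM summed to 234 to 310 in WT and 476 to 1151 in Lats1/2-null, with 0 of 12 at 0. Mesenchymal markers summed to 520 to 723 FPKM in WT and 241 to 547 in Lats1/2-null (9 of 10 tested lower), and endothelial markers to 131 to 222 and 92.8 to 146 (10 of 10 lower). Red blood cell genes ranged from 2634 to 15772 FPKM in WT and from 7969 to 10170 in Lats1/2-null. Their median deviation was 1.00 in WT 4, where the histones were highest, and 0.50 in WT 5, where the histones were low. Leukocyte markers summed to 12.1 to 26.2 FPKM in WT and 20.9 to 30.8 in Lats1/2-null, and liver markers to 113 to 197 and 161 to 462. In bulk buds, fewer cells in S phase and less histone mRNA per cell cannot be told apart, and the part of cell makeup in the histone values was not tested. As a check of the genotype, Lats1 was at 14.1 to 16.6 FPKM in WT and at 12.3, 13.8 and 10.1 in Lats1/2-null, without overlap (log2 fold change -0.35 ± 0.10, SE; limma adjusted p = 0.269), and Lats2 at 11.6 to 14.7 and 11.1 to 13.4. These values cover the whole gene and every cell of the bud, including those that Cre does not reach.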

How the data were processed

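Total RNA of each bud was depleted of ribosomal RNA and sequenced as stranded paired reads of 75 bases. Per the labels and methods, the authors trimmed reads with cutadapt 1.12, aligned them to GRCm38/mm10 with TopHat 2.1.0, and estimated the deposited FPKM with Cufflinks and Cuffdiff 2.2.1. Quantile normalization is stated, but the columns do not share one distribution. Read totals are not in the table, so intervals from depth are not given. Rows averaging 0.5 FPKM or more entered limma 3.58.1 (R 4.3.3; mean-variance trend) on log2(FPKM + 1), which understates changes of low genes; adjusted p-values are Benjamini-Hochberg over 13777 genes. The fit was tested on simulated data. Single genes also had an exact permutation test. Members and gene lists were chosen with earlier results of these data known. Named members are the 3 with the highest mean FPKM per class, the 5 with the smallest p, and those with polyadenylated or male germ line forms; of other lists, genes with the smallest p or highest FPKM. Hairpins had to open with GG and close with CC, and G-T pairs were allowed. All columns of libraries were used. Replicate numbers did not pair the libraries.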

Additional observations from a re-analysis of the deposited data

Results flagged for a closer look

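Among the 31 sets of 5 WT values examined (named members and class sums), 4 held a library far from the others by Dixon's ratio at the 95% level; chance gives about 1 in 20. Hist4h4 was at 459 FPKM in WT 4 and at 247 to 283 in the other WT buds. Hist1h2be was at 257 FPKM in WT 4 and at 169 to 192 in the others. Hist1h2bc was at 79.7 FPKM in WT 5 and at 134 to 153 in the others. Hist1h2ba was at 21.5 FPKM in WT 3 and at 0 to 3.95 in the others.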

How the results depend on the processing

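Members called numbered 0 under all 17 alternatives. The smallest adjusted p (limma) was 0.068 with array weights and 0.070 without Lats1/2-null 2. At an unadjusted p under 0.05 (limma), there were 22 members with array weights, 10 without Lats1/2-null 2 and 17 without WT 5. The share of all tested genes at that p was not taken for the alternatives. These counts, and the one under a replicate block, are thus not read as a result about the members. The median log2 fold change of members ran from -0.36 to -0.10 when single libraries were left out and was -0.31 with array weights. The log2 ratio of summed FPKM ran from -0.34 to -0.09 in all, and for H1 from -0.17 to 0.03, the last without Lats1/2-null 3. Genes called, 2 in the main comparison, were 18 with a pseudocount of 0.1, 174 with array weights, 1 without the mean-variance trend, and 0 to 69 when single libraries were left out. The members that did not overlap numbered 0 to 11 when single libraries were left out. They were 11 (17.2%, against 19.4% of all genes) without Lats1/2-null 2 and 5 (7.94%, against 10.5%) without WT 5. Without WT 4 and 5 together, an alternative chosen after seeing the data, 5 members (7.94%, against 16.5%) did not overlap and 1 gene was called. A replicate block left 1 gene and 0 members called, with 9 members at an unadjusted p under 0.05. Correlations of same-numbered deviations were 0.09, -0.10 and 0.07, so the numbers are not taken to pair libraries, and WT 4 and 5 have no partner in the block. The replicate block and leaving out WT 4 and 5 both turned the log2 fold change of Hist1h1e to -0.0148, Hist1h1d to -4.42e-05, Hist1h2af to 0.0229 and Hist1h2bc to -0.0281. Array weights turned Hist1h1e to -0.0194, Hist1h1c to 0.000295 and Hist1h2bc to -0.0982. When single libraries were left out, the ranges that crossed 0 had ends at -0.0729 and 0.12 for Hist1h1e, -0.0563 and 0.21 for Hist1h2bc, -0.13 and 0.17 for Hist1h1d, -0.29 and 0.0438 for Hist1h2af, -0.14 and 0.038 for Hist1h2bb, -0.18 and 0.15 for Hist1h3e and -0.27 and 0.08996 for Hist2h2ac. The other tested named members kept their sign under every alternative. The cause of these changes was not tested.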
